A study of Mus musculus with 10 samples.

Results

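Matricellular and elastic fibre glycoproteins were followed as 10 named genes, Postn, Sparc, Sparcl1, Fn1, Tnc, Thbs1, Thbs2, Fbln1, Fbln2 and Fbn1, in cells sorted from mouse mammary glands. A gene was followed through a microarray probe set annotated with its symbol alone. Of the 10 genes, 9 had such a probe set, each had exactly 1, and all 9 were among the 15815 genes tested; Fbn1 had none and is not analysed here. The arrays fell into 3 groups: 3 arrays of SSKO MaSCs (the stem cell and basal population of Pygo2 SSKO mice), 3 of control Luminal (the mature luminal population of control mice) and 4 of control MaSCs (the stem cell and basal population of control mice), labelled as separate biological replicates. MaSCs of both genotypes are called basal arrays where they are described as one population. All mice were virgin females aged 8 to 12 weeks, and SSKO and control animals were littermates kept in the same cage. Basal cells were gated as CD29-high and CD24-positive, and luminal cells as CD29-low, CD24-positive and CD61-negative, after cells with CD31, CD45 or TER119 (endothelial, blood and erythroid markers) had been gated out. SSKO is not spelled out in the labels, and neither the deleting Cre, the exact genotype of the controls nor the number of animals behind each array is given in the sources used here, so the tests measure the spread between these arrays.

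Matricellular proteins are secreted into the extracellular matrix, where they act less as scaffold than as modulators of adhesion, growth factor activity and matrix assembly. Periostin, SPARC, SPARC-like 1, tenascin-C and the thrombospondins belong to them, while fibronectin forms fibrils through which cells grip the matrix by integrins. Fibrillins and fibulins are parts of microfibrils and elastic fibres, which give tissue its recoil. In the mammary gland the basal layer consists largely of contractile myoepithelial cells that face the basement membrane and make much of the epithelium's matrix, and stromal fibroblasts are the other main source.

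Values are log2(intensity + 16), and each difference is a log2 difference on that scale, with the group named first minus control MaSCs. A gene was called at a limma adjusted p under 0.05. Levels are compared between arrays for the same gene only, since probe sets differ in brightness for reasons other than transcript amount. In these bulk samples, fewer expressing cells and less RNA per cell cannot be told apart.

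The sorted populations carried their markers. Summed over 8 basal markers (Krt5, Krt14 and contractile genes among them), intensities were 56573 to 62138 in SSKO MaSC, 1749 to 11378 in control Luminal and 56976 to 62360 in control MaSC arrays. The sums over 6 luminal markers were 18390 to 21351 in SSKO MaSC, 82369 to 86808 in control Luminal and 12294 to 16498 in control MaSC arrays. Within the luminal group, array 3 stood apart, with a basal marker sum of 11378 against 2511 and 1749 in luminal arrays 1 and 2. Endothelial and fibroblast markers differed between basal arrays of the same group and are given beside the genes they moved with. The targeted gene, Pygo2, fell in SSKO MaSCs (-2.34, SE 0.32, limma adjusted p = 0.0441), to log2 values of 6.99, 5.94 and 5.86 in SSKO MaSC arrays 1 to 3, against 8.30, 9.09, 8.11 and 8.91 in control MaSC arrays 1 to 4. Its SSKO MaSC mean, 6.26, lay under 6.74, the level under which probe sets were dropped as dim. Pygo2 thus passed the filter through the control arrays, and its call is a description only. With no filter the limma adjusted p was 0.0406. Whether its probe set lies in the deleted part was not determined. The call ended without control MaSC array 1, 2 or 4, SSKO MaSC array 2 or 3, or luminal array 1 or 3 (highest adjusted p = 0.363). It also ended with quantile normalization (limma adjusted p = 0.0735), the 2 compared groups alone (0.118) and the replicate number as a block (0.177).

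The comparison of control Luminal with control MaSCs asked how the 2 epithelial layers differ. All 9 measured glycoprotein genes fell in luminal cells, and in each the 3 luminal arrays lay below the 4 control MaSC arrays. Over all genes tested, 19.7% were called lower in luminal cells and 20.5% had luminal arrays all below the control MaSC arrays. The median difference of the 9 genes was -3.39, against 0.07 over all genes tested. The falls were largest for Postn (-4.53) and smallest for Thbs1 (-1.31). In every one of the 9 genes the SSKO MaSC arrays also lay above the luminal arrays, as they did in 24.2% of all genes tested.

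**Figure D1:**
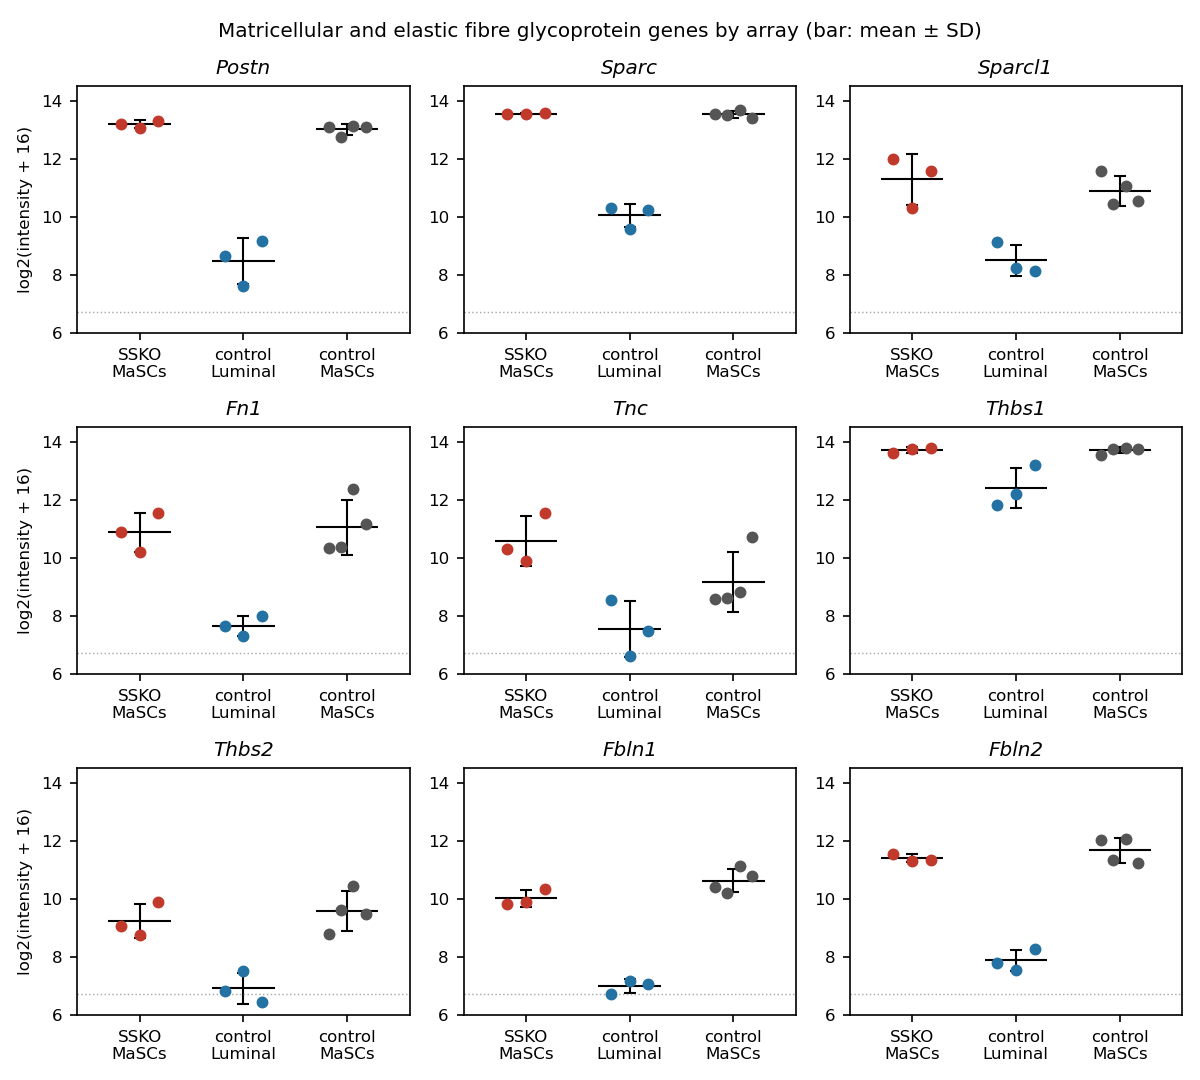
Level of 9 matricellular and elastic fibre glycoprotein genes, as log2(intensity + 16), in each SSKO MaSC (red), control Luminal (blue) and control MaSC (grey) array, with the mean and SD of each group in black. The dotted line at 6.74 marks the mean level under which probe sets were dropped as dim, and every luminal point lies below all basal points of its panel.

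Postn encodes periostin, which binds integrins and collagen and takes part in collagen assembly. Its log2 levels were 8.66, 7.61 and 9.17 in control Luminal arrays 1 to 3, against 13.10, 12.73, 13.11 and 13.08 in control MaSC arrays 1 to 4. The luminal arrays were spread more widely than the control MaSC arrays, and the gap between the groups was larger than either spread. Postn averaged 8.48 ± 0.80 in control Luminal (SD, n = 3) and 13.01 ± 0.18 in control MaSC arrays (SD, n = 4), a 23.1-fold fall (SE 0.29, limma adjusted p = 3.42e-07) that ranked 73rd from the lowest difference of all genes tested. In SSKO MaSC arrays 1 to 3 Postn stood at 13.20, 13.06 and 13.31, within or just above the control MaSC values, and differed from control MaSCs by 0.19 (95% interval -0.45 to 0.82).

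The promoter of Postn is shown because Postn fell most between the epithelial layers. The RefSeq table (GRCm38.p6) holds windows at more than one start site, and that of the downstream one, chr3:54360857-54361156 on the plus strand, runs from 250 bases before to 50 bases after the start. Capitals mark the letters TATAAA.
Postn: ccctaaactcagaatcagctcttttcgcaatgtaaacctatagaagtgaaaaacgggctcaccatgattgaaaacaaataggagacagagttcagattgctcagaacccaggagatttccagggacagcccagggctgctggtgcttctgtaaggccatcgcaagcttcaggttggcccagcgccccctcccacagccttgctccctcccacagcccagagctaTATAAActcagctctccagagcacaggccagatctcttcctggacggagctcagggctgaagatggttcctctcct

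The match began 26 bases before the start site. Promoter windows were found for 6 of the 9 measured genes (Postn, Sparc, Tnc, Thbs2, Fbln1 and Fbln2). The letters of these motifs were searched on both strands: the TATA box TATAAA, the TEAD motif GGAATG, the AP-1 motif TGANTCA and the E-box CAGGTG bound by SNAI and ZEB factors. These genes had 9 windows, since Postn, Tnc and Fbln1 have windows at more than one start site. TATAAA was found in 4 of the 9 windows, against 13.6% of all promoter windows of the same length. They were 1 window of Postn, 1 of Thbs2 (on the opposite strand) and both of Tnc, which overlap and share the match. The matches began 26 bases before the start in Postn, 126 in Thbs2, and 205 and 126 in the Tnc windows. These are matches of letters at any position, and whether any works as a TATA box was not tested. GGAATG and TGANTCA were found in 0 of the 9 windows, against 14.7% and 7.81% of all windows, and CAGGTG in 1, that of Sparc, against 20.2%.

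The SPARC family has 2 members here. Sparc encodes a collagen-binding, counter-adhesive glycoprotein also known as osteonectin. Its log2 levels were 10.31, 9.59 and 10.25 in control Luminal arrays, against 13.54, 13.49, 13.69 and 13.39 in control MaSC arrays. The groups stood far apart relative to their spread, and Sparc fell 11.2-fold in luminal cells (-3.48, SE 0.17, limma adjusted p = 4.56e-08). SSKO MaSC arrays, at 13.55, 13.52 and 13.55, lay inside the control MaSC range, with a difference of 0.01 (95% interval -0.36 to 0.38). Of the 9 genes, Sparc and Thbs1 varied least among the 7 basal arrays, over 0.29 and 0.25 log2 units.

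Sparcl1 encodes hevin, a relative of SPARC made by vascular cells among others. It fell 5.28-fold in luminal cells (-2.40, SE 0.41, limma adjusted p = 5.55e-04), with log2 levels of 9.12, 8.24 and 8.14 in luminal arrays against 11.56, 10.43, 11.06 and 10.54 in control MaSC arrays. Its SSKO MaSC levels were 12.00, 10.31 and 11.57. SSKO MaSC array 2 lay below every control MaSC array while SSKO MaSC arrays 1 and 3 lay above them, and the difference of 0.39 did not pass (95% interval -0.50 to 1.29, limma adjusted p = 1). The difference was 0.04 without SSKO MaSC array 1 and 0.88 without SSKO MaSC array 2.

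The 7 basal arrays stood in the same order for Sparcl1 and for the mean of 10 endothelial markers. That marker mean was 10.98, 8.22 and 10.10 in SSKO MaSC arrays 1 to 3, against 10.02, 8.39, 8.83 and 8.76 in control MaSC arrays 1 to 4. Pecam1, which encodes the CD31 used to gate endothelial cells out, had log2 levels of 11.31, 8.32 and 10.41 in SSKO MaSC arrays and 10.34, 8.31, 9.27 and 8.87 in control MaSC arrays. Summed endothelial intensities ran over 3850 to 22356 in SSKO MaSC, 2992 to 4131 in control Luminal and 4132 to 11519 in control MaSC arrays, and 10 of 10 markers had a positive SSKO difference, none of them called. Without the 3 brightest basal arrays for these markers (SSKO 1 and 3, control 1), the Sparcl1 difference was -0.37, in a fit with 1 SSKO array left that is assumed to vary like the other groups. The part of endothelial RNA in the Sparcl1 values was not tested.

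**Figure D2:**
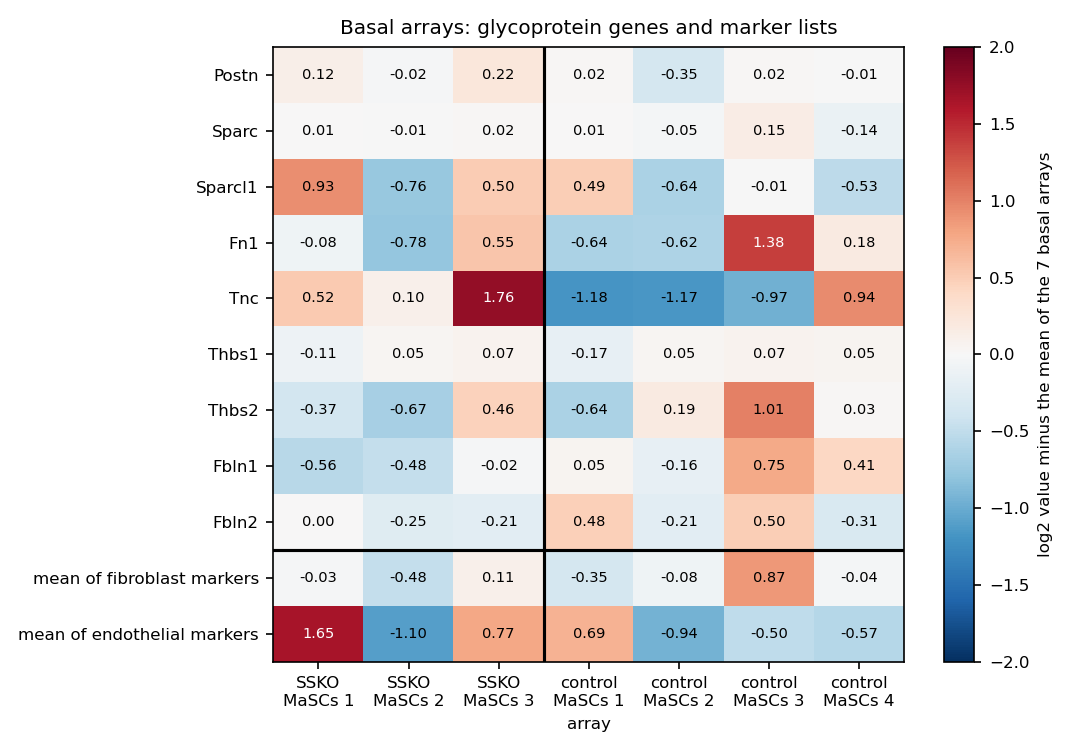
Log2 level of each gene minus its mean over the 7 basal arrays, with SSKO MaSC arrays to the left of the black line and control MaSC arrays to its right, and below them the same for the mean of the fibroblast and endothelial markers. Sparcl1 and the endothelial mean are highest in SSKO MaSC array 1 and lowest in SSKO MaSC array 2, whereas the fibroblast mean and Sparc, Fn1, Thbs1, Thbs2, Fbln1 and Fbln2 are highest in control MaSC array 3.

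Fn1 encodes fibronectin, which cells assemble into fibrils through integrin alpha5 beta1. Its log2 levels were 7.66, 7.32 and 8.01 in control Luminal arrays, against 10.34, 10.36, 12.36 and 11.16 in control MaSC arrays. It fell 10.5-fold in luminal cells (-3.39, SE 0.46, limma adjusted p = 1.17e-04). In SSKO MaSC arrays Fn1 stood at 10.90, 10.20 and 11.53, so the basal groups overlapped and differed by -0.18 (95% interval -1.20 to 0.84). Control MaSC array 3 was the brightest basal array for Fn1, and without it the SSKO difference was 0.25. It was -1.10 without the 3 basal arrays brightest for endothelial markers, and neither value passed.

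Thbs1 and Thbs2 encode thrombospondins, which bind CD47 and, in endothelial cells, CD36, and are known as inhibitors of angiogenesis. Thbs1 had log2 levels of 11.82, 12.20 and 13.18 in control Luminal arrays, against 13.54, 13.76, 13.79 and 13.76 in control MaSC arrays. It fell 2.48-fold (-1.31, SE 0.25, limma adjusted p = 0.00135), and the nearest luminal value was that of luminal array 3, the one with the highest basal marker sum. Without that array the difference was -1.70. In SSKO MaSC arrays Thbs1 was 13.61, 13.76 and 13.78, a difference of 0.00 (95% interval -0.55 to 0.56).

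Thbs2 had log2 levels of 6.82, 7.50 and 6.45 in control Luminal arrays, against 8.80, 9.62, 10.44 and 9.47 in control MaSC arrays, a 6.31-fold fall (-2.66, SE 0.39, limma adjusted p = 1.87e-04). Luminal array 3 lay under the dim level of 6.74, as did luminal array 1 for Fbln1 and luminal array 2 for Tnc. Its SSKO MaSC levels were 9.07, 8.77 and 9.89, and the SSKO difference of -0.34 (95% interval -1.19 to 0.51) was -0.05 without control MaSC array 3 and -0.67 without SSKO MaSC array 3. Without the 3 basal arrays brightest for endothelial markers it was -1.07, with SSKO MaSC array 2 as the only SSKO array.

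The fibulins Fbln1 and Fbln2 bind fibronectin, laminins and elastic fibre proteins. Fbln1 had log2 levels of 6.72, 7.18 and 7.05 in control Luminal arrays, against 10.42, 10.20, 11.11 and 10.77 in control MaSC arrays, a 12.5-fold fall (-3.64, SE 0.22, limma adjusted p = 2.54e-07). Fbln2 had 7.78, 7.56 and 8.29 in control Luminal arrays, against 12.04, 11.34, 12.05 and 11.24 in control MaSC arrays, a 13.9-fold fall (-3.79, SE 0.24, limma adjusted p = 2.95e-07). The 2 fibulins thus stood next to Postn among the 9 genes by size of fall.

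In SSKO MaSC arrays Fbln1 was 9.81, 9.88 and 10.34, and only SSKO MaSC array 3 reached into the control MaSC range. Its mean over 3 SSKO MaSC arrays was 10.01 (SD 0.29), against 10.63 (SD 0.40) over 4 control MaSC arrays, a difference of -0.62 (95% interval, not adjusted for the number of genes, -1.11 to -0.12) that did not pass over all genes (limma adjusted p = 1). It was the lowest SSKO difference among the 9 genes, 61st from the lowest of all genes tested. It lay between -0.78 and -0.45 when each array was left out in turn. Fbln2 was 11.55, 11.31 and 11.34 in SSKO MaSC arrays, within the control MaSC range, and differed by -0.27 (95% interval -0.79 to 0.25), or -0.41 to -0.14 when each array was left out in turn.

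Control MaSC array 3 was the brightest basal array for fibroblast markers and for 6 of the 9 genes, Sparc, Fn1, Thbs1, Thbs2, Fbln1 and Fbln2, and also for the mean of the basal markers. The mean of 12 fibroblast markers, none of them among the 9 genes, was 9.48, 9.02 and 9.61 in SSKO MaSC arrays 1 to 3, against 9.16, 9.43, 10.38 and 9.46 in control MaSC arrays 1 to 4. SSKO MaSC array 3 was the second for this mean and for Sparc, Fn1, Thbs1 and Thbs2, and SSKO MaSC array 2 was last for this mean, Fn1 and Thbs2. Fn1 and Thbs2 shared 5 of the 7 places with this mean, Sparc and Fbln2 3, and Thbs1 and Fbln1 2. Control MaSC array 3 led only narrowly for Thbs1 (13.79 against 13.78) and Fbln2 (12.05 against 12.04). The fibroblast marker Pdgfra was lowest of the basal arrays in SSKO MaSC array 3, at 8.37. The collagen gene Col1a2 had log2 levels of 10.55, 10.32 and 10.79 in SSKO MaSC arrays and 10.46, 11.18, 12.50 and 10.59 in control MaSC arrays. Fibroblast sums were 12648 to 18260 in SSKO MaSC, 1931 to 7397 in control Luminal and 14467 to 29519 in control MaSC arrays. Of 11 fibroblast markers tested, 10 were called lower in luminal cells and 0 differed past the test in SSKO MaSCs. In 5 of the 10 the luminal mean was under the dim level, so these passed the filter through the basal arrays and had to differ. The small leucine-rich proteoglycan Dcn was at 12.46, 11.43 and 9.03 in luminal arrays and 12.62 to 13.11 in control MaSC arrays. Of 7 pericyte markers tested, 6 were called lower in luminal cells, 1 of them with a luminal mean under the dim level. The mean of 8 pericyte markers was 7.23 to 7.50 in control Luminal and 8.45 to 8.68 in control MaSC arrays. It was 9.04, 8.55 and 8.93 in SSKO MaSC arrays 1 to 3, so SSKO MaSC arrays 1 and 3 lay above every control MaSC array. In SSKO MaSCs 5 of the 7 pericyte markers tested had a positive difference and 2 a negative one, and 0 were called. The part of fibroblast and pericyte RNA in the values of the 9 genes was not tested.

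Tnc encodes tenascin-C, a large anti-adhesive glycoprotein that is induced in matrix remodelling and in the stroma of mammary tumours. It was the most variable of the 9 genes, with a within-group SD of 0.97 log2 units, larger than that of 99.2% of all genes tested. Its log2 levels were 10.29, 9.87 and 11.53 in SSKO MaSC arrays 1 to 3, 8.55, 6.61 and 7.47 in control Luminal arrays 1 to 3, and 8.59, 8.60, 8.81 and 10.71 in control MaSC arrays 1 to 4. Each SSKO MaSC array lay above control MaSC arrays 1, 2 and 3, and control MaSC array 4 lay above SSKO MaSC arrays 1 and 2.

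The mean of Tnc over 3 SSKO MaSC arrays was 10.57 (SD 0.86), against 9.18 (SD 1.03) over 4 control MaSC arrays. The difference of 1.39, or 2.62-fold, was the largest SSKO difference among the 9 genes and the 27th highest of all genes tested, with an unadjusted 95% interval of 0.07 to 2.71, and it did not pass (limma adjusted p = 1). It was 1.90 without control MaSC array 4 and 0.90 without SSKO MaSC array 3, and neither passed. Without the 3 basal arrays brightest for endothelial markers it was 0.50, with SSKO MaSC array 2 as the only SSKO array. In luminal cells Tnc fell 3.11-fold against control MaSCs (-1.64, SE 0.60, limma adjusted p = 0.0446). Luminal array 1, at 8.55, was only just below the lowest control MaSC array, at 8.59. That call ended without control MaSC array 3 or 4, SSKO MaSC array 1, or luminal array 2 or 3 (adjusted p = 0.0584, 0.0912, 0.0562, 0.188 and 0.0992), and the difference was -1.13 without control MaSC array 4.

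The promoter of Tnc is shown because Tnc varied most between arrays. Its window at the start site nearer the gene body, chr4:64046887-64047186 on the minus strand (GRCm38.p6), is written in the direction of transcription. Capitals mark the letters TATAAA, 205 bases before the start. The letters tatataag, nearer the start, do not hold TATAAA and are left unmarked.
Tnc: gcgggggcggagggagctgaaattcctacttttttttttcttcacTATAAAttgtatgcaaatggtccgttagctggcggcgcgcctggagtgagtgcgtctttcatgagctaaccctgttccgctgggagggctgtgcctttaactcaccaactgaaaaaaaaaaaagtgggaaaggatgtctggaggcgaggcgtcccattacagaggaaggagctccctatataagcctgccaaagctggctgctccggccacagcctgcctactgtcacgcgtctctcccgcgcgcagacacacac

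The series also set Pygo2 SSKO mice against their control littermates within the MaSC population, using the same control MaSC arrays as the luminal comparison. None of the 9 glycoprotein genes passed in either direction, and in 0 of the 9 did the SSKO MaSC arrays lie wholly outside the control MaSC arrays, which they did in 4.46% of all genes tested. limma called 0.0379% of all genes, 6 in number, so few genes of any kind passed. At an unadjusted p under 0.05 the fit held 2 of the 9 genes, Tnc and Fbln1, and 3.03% of all genes tested. That count was 0 without control MaSC array 3 or without SSKO MaSC array 1, and 1 without control MaSC array 1 or 2, SSKO MaSC array 3 or luminal array 3. The SSKO difference was positive for 5 of the 9 genes and negative for 4, with a median of 0.00 against 0.01 over all genes tested. Without the 3 basal arrays brightest for endothelial markers, the median of the 9 was -0.24 and 7 were negative, Sparc among them at 0.00 after rounding. That setting left SSKO MaSC array 2 as the only SSKO array. Less endothelial RNA and the choice of this array cannot be told apart there. With quantile normalization or centred arrays, 3 were positive and 6 negative, with medians of -0.07 and -0.04. The 95% intervals of Sparc, Thbs1, Postn and Fbln2 all lay between -0.79 and 0.82, while those of Fn1, Sparcl1, Thbs2, Fbln1 and Tnc each reached past 1 log2 unit in some direction.

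**Figure D3:**
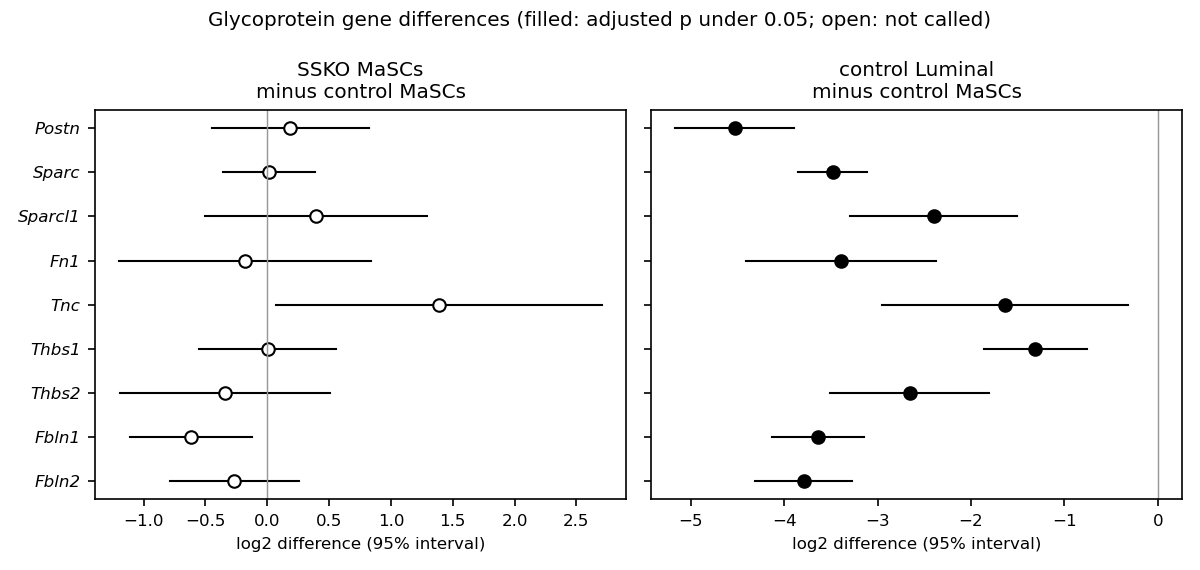
Log2 difference of each gene with its 95% interval, for SSKO MaSCs minus control MaSCs on the left and control Luminal minus control MaSCs on the right; filled circles have a limma adjusted p under 0.05. All 9 genes are filled and negative on the right, from -4.53 for Postn to -1.31 for Thbs1, and none is filled on the left, where Tnc lies highest at 1.39 and Fbln1 lowest at -0.62.

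**Figure D4:**
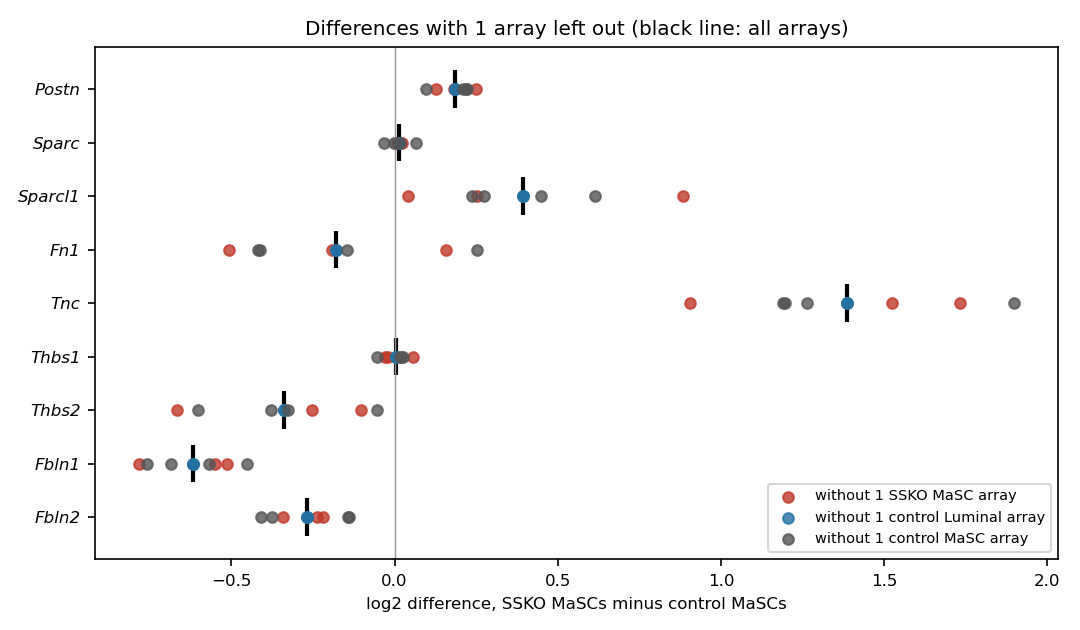
Log2 difference, SSKO MaSCs minus control MaSCs, with all arrays (black line) and with 1 array left out (points, coloured by the group of that array). The points of Sparc and Thbs1 stay near 0, those of Fn1 fall on both sides of 0, and those of Tnc run from 0.90 to 1.90.

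Genes of the same families were described from 3 lists. Over all 15815 genes tested, 19.7% were called lower in luminal cells and 3887 genes were called higher. Of 18 other matricellular genes tested, 6 were called lower and 2 higher in luminal cells, with a median difference of -0.47. The falls included Fstl1 (-4.99, SE 0.20, limma adjusted p = 1.45e-08), which encodes a secreted SPARC-related protein, the proteoglycan gene Spock2 (-4.37, SE 0.20), and the CCN genes Ccn2 (-3.53, SE 0.35) and Ccn4 (-2.70, SE 0.22), of which Ccn2 is a target of YAP and TEAD factors and Ccn4 a Wnt-induced gene. The luminal mean of Ccn4 lay under the dim level. The 2 genes that rose were Ccn5 (0.85, SE 0.23, limma adjusted p = 0.0101), a CCN protein without the C-terminal domain of its relatives, and the tenascin gene Tnr (0.72, SE 0.17, limma adjusted p = 0.00511). The control MaSC mean of Tnr, 6.49, was under the dim level, so Tnr passed the filter through the other arrays and had to differ.

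Of 19 other elastic fibre and microfibril genes tested, 15 fell and 0 rose in luminal cells, with a median difference of -3.44. The 6 of smallest p were Fbln7 (-5.17, SE 0.22, limma adjusted p = 1.82e-08), the latent TGF-beta binding protein genes Ltbp2 (-4.05, SE 0.18) and Ltbp4 (-3.63, SE 0.26), the hemicentin gene Hmcn1 (-4.72, SE 0.22), the microfibril gene Mfap2 (-4.48, SE 0.23) and the lysyl oxidase gene Loxl3 (-4.00, SE 0.24). In 10 of the 15 the luminal mean was under the dim level, so they passed the filter through the basal arrays and had to differ, and their count is a description only. Hmcn1 had 77 probe sets, and luminal arrays lay below control MaSC arrays in 77 of them, with differences from -4.96 to -1.96.

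Of 14 receptor genes tested, 9 fell and 0 rose in luminal cells, with a median difference of -1.29. Itga9 (-4.39, SE 0.24, limma adjusted p = 1.03e-07) encodes the alpha9 integrin, a receptor of tenascin-C, and Itga5 (-1.80, SE 0.21) the alpha subunit of the fibronectin receptor. The luminal mean of Itga9, 6.53, was under the dim level, so it passed the filter through the basal arrays and had to differ. Lrp1 (-3.01, SE 0.20), an endocytic receptor that clears thrombospondins, Itga8 (-2.58, SE 0.26), Itgb3 (-2.47, SE 0.24) and Sdc1 (10.93 in control Luminal and 11.94 in control MaSC arrays on average, limma adjusted p = 7.75e-05) also fell. Itgb3 encodes CD61, by which luminal cells were gated as negative, and Itgb1 (-0.78, SE 0.12), also among the 9, encodes CD29, by which the populations were separated, so the falls of these genes are no independent finding.

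In SSKO MaSCs limma called 0 genes of the 3 lists. Median differences were 0.11 for the matricellular, -0.16 for the elastic fibre and -0.03 for the receptor genes. The genes of smallest p were Tnr (0.42, SE 0.17) and Spock1 (0.37, SE 0.23), Fbln5 (0.51, SE 0.24) and Ltbp2 (0.37, SE 0.18), and Lrp1 (-0.27, SE 0.20) and Itga8 (-0.32, SE 0.26), each with a limma adjusted p = 1. Tnr is given as a description only, since its control MaSC mean was under the dim level.

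**Figure D5:**
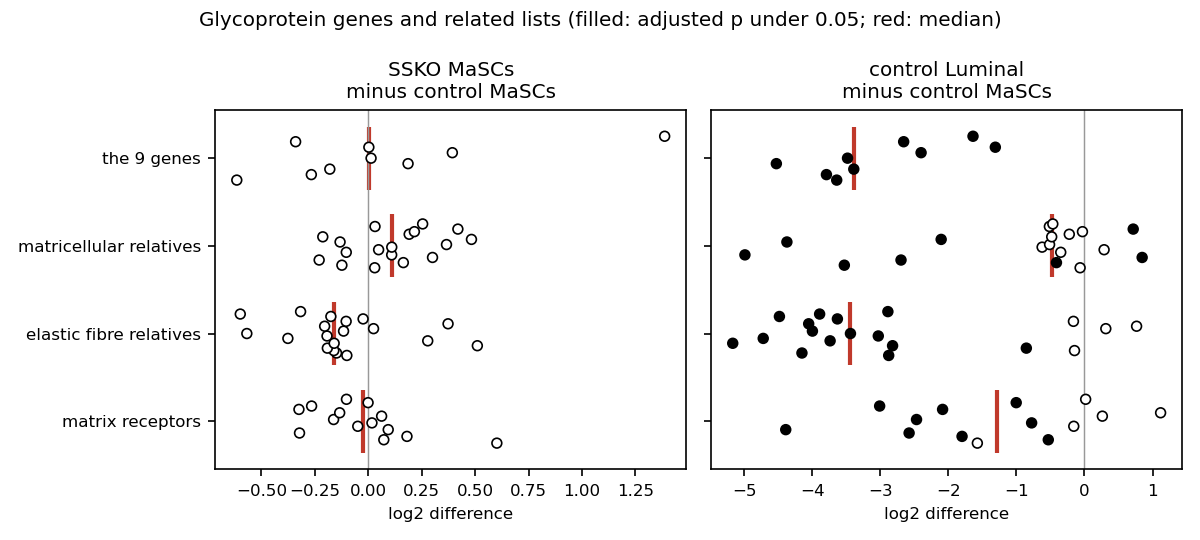
Log2 differences of the 9 genes and of the 3 related lists, for SSKO MaSCs minus control MaSCs on the left and control Luminal minus control MaSCs on the right, with 1 circle per gene, filled where the limma adjusted p was under 0.05, and the median in red. On the right the medians are -3.39, -0.47, -3.44 and -1.29 from top to bottom, and on the left no circle is filled.

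Genes of the most similar profile were found for each gene by the mean absolute difference of log2 values, each centred on its own mean over the 10 arrays. The nearest to Sparcl1 were Ebf1 (0.21) and Akap12 (0.25), and both were brightest in SSKO MaSC array 1, at 10.09 and 10.37. The nearest to Fn1 were Efemp1 (0.26), which encodes fibulin-3, and the matrix gene Abi3bp (0.29), and those to Thbs2 were Mfap5 (0.24), which is also on the fibroblast list, and Cped1 (0.28). The nearest to Postn were Antxr1 (0.17), a collagen-binding receptor, and Nrg1 (0.18), an ERBB ligand. Sparc was nearest to Panx1 (0.11) and the myelin gene Pmp22 (0.13), and Thbs1 to Npas3 (0.08) and Luzp1 (0.11). Fbln1 was nearest to Dhrs9 (0.19) and Glrb (0.22), and Fbln2 to Tspan2 (0.16) and the protocadherin gene Pcdh18 (0.17).

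The nearest genes to Tnc, Procr (0.47) and Ifi205 (0.55), were farther from it than the nearest of any other of the 9 genes. This distance is not scaled by spread, and Tnc had the largest within-group SD of the 9. The larger distance thus does not show that the profile of Tnc is distinct. Procr encodes the endothelial protein C receptor, also a marker of a mammary stem cell fraction. Its log2 levels were 10.16, 8.55 and 11.02 in SSKO MaSC arrays 1 to 3, against 8.79 to 9.74 over the 4 control MaSC arrays. For Procr too, SSKO MaSC array 3 was the brightest, and control MaSC array 4 was the brightest control, whereas SSKO MaSC array 2 lay below every control MaSC array.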

How the data were processed

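RNA of sorted mammary cells was measured on 10 arrays, 1 per sample. The deposited table holds a linear intensity for 28815 probe sets. Expression Console 1.1 and PLIER 2.0 are listed, with no role, among the submitters' processing notes. No source used here states a normalization between arrays, whose medians lay between 205 and 228. No detection calls were used, and the number of arrays limits the precision.

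GEO's platform annotation gave 21780 probe sets a single symbol, 1605 several and 5430 none; 21689 symbols matched the RefSeq gene table. From log2(intensity + 16), the dimmest 25% of probe sets (mean under 6.74) were dropped, the brightest probe set per symbol was kept (15815 genes), and 3 group means were fitted to all arrays with limma 3.58.1 in R 4.3.3 (7 residual degrees of freedom, Benjamini-Hochberg over all genes, threshold 0.05, two-sided). The fit was tested on simulated data. Figures used matplotlib 3.10.9 in Python 3.11.15. The genes, lists and tests were chosen with earlier results of these data known. From each related list the text names up to 6 called genes of smallest p per comparison, or, with no call, the 2 of smallest p. Motif letters were searched in RefSeq promoter windows of 300 bases. Alternatives changed the pseudocount, filter, scaling, probe set rule, variance model, weights, block and arrays used.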

Additional observations from a re-analysis of the deposited data

Results flagged for a closer look

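In the control MaSC group, the only group of 4 arrays, 1 array stood apart from the other 3 for 3 of the 30 genes checked, and chance alone gives about 5% of such groups. Tnc was 10.71 in control MaSC array 4, against 8.59 to 8.81 in the other 3. Postn was 12.73 in control MaSC array 2, against 13.08 to 13.11 in the others, and Thbs1 was 13.54 in control MaSC array 1, against 13.76 to 13.79.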

How the results depend on the processing

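None of the 9 glycoprotein genes was called in SSKO MaSCs under any of the 22 alternatives, and their sign changed in 15 of 198 recomputed differences, all uncalled, for Sparc, Thbs1, Fn1 and Sparcl1. In luminal cells 189 of 198 recomputed differences kept their call, and the other 9 were all Tnc: besides the 5 arrays named above, its call ended with a pseudocount of 64 (adjusted p = 0.0566), quantile normalization (0.0503), centred arrays (0.0525) and the replicate number as a block (0.0558). The count of the 9 genes at an unadjusted p under 0.05 in SSKO MaSCs was 1 with centred arrays and with array weights. The number of genes called in SSKO MaSCs was small and unstable. Quantile normalization gave 3 genes, 3 higher and 0 lower. Without the 3 basal arrays brightest for endothelial markers, SSKO MaSC array 2 was the only SSKO array, so no count of genes is given for that setting. The lower calls, 1 in number (Pygo2), were 0 with the dimmest 50% of probe sets dropped, with the 2 compared groups alone and with the replicate block. With 1 array left out, the count ran from 1 (without SSKO MaSC array 3) to 27 (without SSKO MaSC array 2), with 1 to 27 higher and 0 to 2 lower; it was 2 without control MaSC array 2. The replicate numbers were not taken as pairing arrays in the main fit. The correlation of deviations between same-numbered SSKO and control MaSC arrays was 0.64, 0.46 and 0.05. Differently numbered pairings of SSKO MaSC arrays 1 and 2 ran from -0.44 to 0.17. SSKO MaSC array 3 correlated most with control MaSC array 4, at 0.43. Some SSKO and control arrays may thus share a source of variation, and its nature was not tested. With the replicate block, control MaSC array 4, the only array numbered 4, had a term of its own and dropped out of the differences. The Tnc difference in SSKO MaSCs was thus 1.90 with the block (limma adjusted p = 0.528), the same value as without that array. None of the 9 genes was called there. All 24 named results of related genes kept their side of the threshold wherever they could be computed.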

Other observations

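Some relatives of the 9 genes were not called in luminal cells while others of the same family were; those named here were chosen after their values were seen. Of the matricellular relatives tested, 10 of 18 were not called, Thbs3, Thbs4, Tnn and Tnxb among them. Over all 15815 genes tested, 7001 were called in either direction, so the share not called among these relatives was near that of all genes. The CCN gene Ccn1 stood at 12.44 ± 0.25 (SD, n = 3) in control Luminal and 12.50 in control MaSCs, a difference of -0.06 (limma adjusted p = 0.88), while Ccn2 fell by 3.53 on the log2 scale. Among latent TGF-beta binding proteins, Ltbp1 (0.77, SE 0.34, adjusted p = 0.0906) and Ltbp3 (-0.16, SE 0.17, adjusted p = 0.485) were not called, unlike Ltbp2 and Ltbp4. The lysyl oxidase gene Loxl4 (0.31, adjusted p = 0.16) was not called either, where Lox (-3.03) and Loxl1 (-3.44) fell. Among receptors, the integrin genes Itgav (-0.16) and Itgb5 (0.26), whose products pair to bind RGD ligands, and the syndecan gene Sdc4 (0.02) did not pass. Tgfbi, which encodes a periostin relative, was 10.22, 8.79 and 10.21 in SSKO MaSC arrays 1 to 3, against 8.57, 8.56, 8.53 and 11.37 in control MaSC arrays 1 to 4, and so shared with Tnc a control MaSC array 4 above the other 3 controls.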
